A study of Homo sapiens with 6 samples.

Results

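The kinases CSNK1D, CSNK1E and GSK3B, the F-box proteins BTRC and FBXW11, the auxiliary repressors BHLHE40, BHLHE41 and CIART, and the deacetylase SIRT1 act on the core of the circadian clock. Their 9 genes were taken by symbol from a table of 26025 genes, and each matched 1 row. RNA was sequenced from NCI-H1299 cells, an established line of human non-small cell lung cancer, as 3 libraries of Ctrl cells and 3 of cells treated with 10 µM norepinephrine (NE), a stress hormone and adrenergic agonist, for 48 h. All cultures, Ctrl included, had been starved for 8 to 12 h and then kept in medium with 2% fetal bovine serum. The labels name the vehicle of the Ctrl cells once as DMSO and once as PBS. They do not say whether the libraries of a group came from separate cultures, so that the p-values measure the spread between these libraries, which may be technical.

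In the clock, CLOCK and BMAL1 bind E-boxes and drive the PER and CRY genes, whose proteins later repress CLOCK and BMAL1. Casein kinase 1 delta and epsilon, encoded by CSNK1D and CSNK1E, phosphorylate the PER proteins, and the SCF ubiquitin ligases that carry BTRC or FBXW11 then mark them for the proteasome. GSK3B is a kinase with several clock substrates. BHLHE40 and BHLHE41, also called DEC1 and DEC2, compete for the same E-boxes, CIART is a repressor of CLOCK and BMAL1, and SIRT1 is an NAD-dependent deacetylase that counters the acetylation of BMAL1.

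The auxiliary repressors are known as E-box genes, and the promoters that hold an E-box are shown to let this be seen in the sequence. RefSeq promoters of GRCh38.p14, from 250 bases before to 50 bases after the start site, were found for 7 of the 9 genes, all but CSNK1D and BTRC, with 2 entries for CSNK1E. The E-box was searched as CACGTG, which reads the same on both strands. It occurred in 4 of the 7 genes, BHLHE40, BHLHE41, CIART and SIRT1, and in 7.26% of all 35116 promoters. The 250 bases before each start site are given 5′ to 3′ on the strand of the gene, with the E-boxes in capitals.
BHLHE40, chr3:4979187-4979436, plus strand: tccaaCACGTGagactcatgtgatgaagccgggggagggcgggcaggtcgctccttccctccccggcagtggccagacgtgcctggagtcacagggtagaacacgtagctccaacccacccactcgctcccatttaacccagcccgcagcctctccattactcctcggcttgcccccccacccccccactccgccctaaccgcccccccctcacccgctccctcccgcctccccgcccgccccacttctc
BHLHE41, chr12:26125038-26125287, minus strand: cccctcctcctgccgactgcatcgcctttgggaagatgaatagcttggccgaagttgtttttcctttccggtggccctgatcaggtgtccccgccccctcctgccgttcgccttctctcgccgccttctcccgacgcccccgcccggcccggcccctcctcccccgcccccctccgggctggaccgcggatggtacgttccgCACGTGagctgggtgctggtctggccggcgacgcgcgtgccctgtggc
CIART, chr1:150282304-150282553, plus strand: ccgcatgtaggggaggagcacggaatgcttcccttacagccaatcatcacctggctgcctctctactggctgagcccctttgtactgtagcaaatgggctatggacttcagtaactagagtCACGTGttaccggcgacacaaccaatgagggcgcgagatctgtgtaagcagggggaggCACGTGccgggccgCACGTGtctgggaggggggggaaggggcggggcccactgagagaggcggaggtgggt
SIRT1, chr10:67884406-67884655, plus strand: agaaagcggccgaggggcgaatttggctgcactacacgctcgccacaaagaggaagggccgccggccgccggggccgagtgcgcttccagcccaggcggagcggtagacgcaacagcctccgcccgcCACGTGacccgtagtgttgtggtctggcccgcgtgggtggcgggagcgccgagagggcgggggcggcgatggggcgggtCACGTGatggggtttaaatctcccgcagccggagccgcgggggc

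CIART had 3 E-boxes, which began at -129, -71 and -57 from the start site, and SIRT1 had 2, at -123 and -44. BHLHE41 and BHLHE40 had 1 each, at -48 and -245. The cAMP response element, to which CREB binds, was searched on both strands as the full site TGACGTCA and as the shorter site TGACG, which the full site contains. Neither occurred in any of the 7 genes, while 1.85% and 24.6% of all promoters held them. These matches describe the letters of the window and not the binding of a factor.

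The deposited values are read counts per gene divided by 1 factor per library, here called normalized counts. The reads on genes ranged from 17373654 to 17979206 in the Ctrl libraries and from 16852751 to 17325039 in the NE libraries. Ctrl replicate 3 stood apart, where 7305 genes had no read while Ctrl replicates 1 and 2 had 4829 and 4833 such genes, and the result of each of the 9 genes, each ratio and each list count is therefore also given without it. The line carried its keratins KRT8 and KRT18 and vimentin (VIM), at 100.2, 405.7 and 717.1 FPKM in Ctrl (fragments per length of exon and per depth of the library). With NE these markers were lower, at 52.3, 144.0 and 602.0 FPKM. The endothelial and fibroblast markers PECAM1, VWF, COL1A1 and COL3A1 lay at or below 0.21 FPKM in both groups. PTPRC and CD3E were not analysed here. In bulk RNA a change in the share of some cells and a change in RNA per cell cannot be told apart.

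All 9 genes had a mean of at least 10 normalized counts and were tested with limma on log2(normalized count + 1) among 15013 genes. An adjusted p is from this test with Benjamini-Hochberg adjustment over all of these genes, and a gene is said to rise or fall at an adjusted p under 0.05. NE-treated cells had more SIRT1, BTRC, GSK3B and FBXW11 RNA, by 0.43 to 0.83 on the log2 scale, and less CIART RNA, by 0.75. Thus 4 of the 9 genes rose, where 24.6% of all tested genes did, and 1 fell, where 25.5% did. CSNK1D, CSNK1E, BHLHE40 and BHLHE41 did not pass the test. None of the 9 reached an absolute log2 fold change of 1 as well, the second criterion of the study, which 14.0% of all genes met; none did at an unadjusted p under 0.05 or by edgeR either. By edgeR on the recovered reads the same 4 genes rose and 3 fell, CSNK1D, BHLHE40 and CIART, against 23.8% and 26.5% of all genes. The median log2 difference over the 9 genes was -0.11, and over all tested genes it was 0.01. Every NE library lay above every Ctrl library for 4 of the 9 genes and below for 1, against 29.7% and 28.9% of all tested genes. With 3 libraries in each group an exact permutation test of 1 gene cannot go below p = 0.1.

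**Figure D1:**
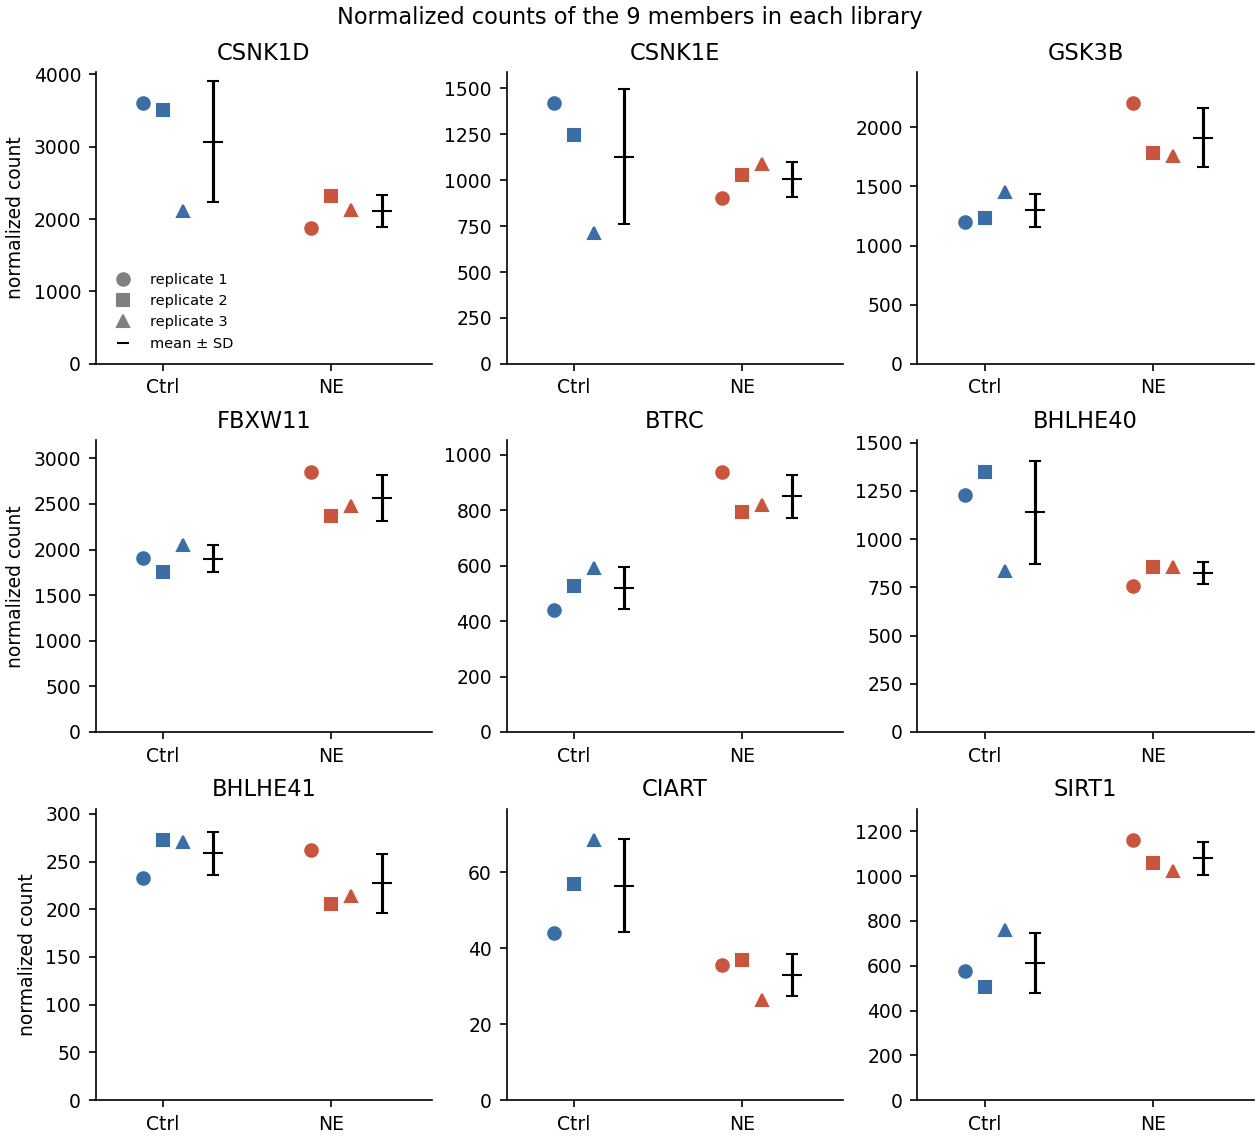
Normalized counts of each gene in the 3 Ctrl and 3 NE libraries, with 1 symbol per replicate number and the mean ± SD beside each group; each vertical axis starts at 0. The NE libraries lie above all Ctrl libraries for GSK3B, FBXW11, BTRC and SIRT1 and below them for CIART, while Ctrl replicate 3 lies among or below the NE libraries for CSNK1D, CSNK1E and BHLHE40.

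Levels between genes can be compared only per length, and FPKM were recomputed from the recovered reads and the merged exons of each gene. The merged exons ran from 2849 bases for CIART to 17871 for GSK3B, and may be longer than the transcripts present. The order below depends on these lengths. GSK3B had more normalized counts in Ctrl than SIRT1, with means of 1296 and 613.4, but fewer per length. In Ctrl cells FBXW11 was highest with 19.0 ± 1.81 FPKM (SD, n = 3), followed by BHLHE40 with 17.9 ± 3.94, CSNK1D with 15.5 ± 3.97, CSNK1E with 8.78 ± 2.74 and SIRT1 with 7.48 ± 1.78. Each of these overlapped the next one in the order. BTRC followed with 4.37 ± 0.71 FPKM, GSK3B with 4.03 ± 0.51 and BHLHE41 with 3.73 ± 0.36, which overlapped in the same way. BTRC lay below SIRT1 in every Ctrl library. CIART was lowest, with 1.10 ± 0.26 FPKM, and did not overlap BHLHE41. In NE-treated cells SIRT1 reached 14.4 ± 0.39 FPKM and stood beside BHLHE40 with 14.3 ± 1.56, and FBXW11 reached 28.0 ± 1.96.

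Of the kinases, CSNK1D (ENSG00000141551) is a minus-strand gene of chromosome 17 (hg38) from 82239023 to 82273700. It had 3597, 3509 and 2108 normalized counts in Ctrl replicates 1 to 3, and 1877, 2319 and 2120.0 in the NE libraries. The groups overlapped because Ctrl replicate 3 lay within the range of the NE libraries, 0.75 below the mean of the other Ctrl libraries on the log2 scale, where the NE mean lay 0.76 below it. The log2 fold change was -0.51 (standard error 0.197, adjusted p = 0.0557), and without Ctrl replicate 3 it was -0.76 (adjusted p = 1.24e-05 from limma). By edgeR on the recovered reads it was -0.55 with an adjusted p of 0.0372. SLC16A3, a lactate transporter gene on the other strand, shares 482 bases or 4.38% of the CSNK1D exons. Its mean normalized count was 5832 in Ctrl cells and 2547 with NE. The part of SLC16A3 reads in the CSNK1D counts was not tested.

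CSNK1E (ENSG00000213923), on the minus strand of chromosome 22 from 38290691 to 38318084, had 1418, 1249 and 714.4 normalized counts in Ctrl and 901.2, 1029 and 1088 in NE. Ctrl replicate 3 was the lowest of all 6 libraries and Ctrl replicates 1 and 2 were the highest, with the NE libraries between them. Its log2 fold change was -0.11 (95% interval -0.62 to 0.41, adjusted p = 0.713), and it was -0.41 without Ctrl replicate 3 (adjusted p = 0.0037 from limma). The sign turned without Ctrl replicate 1, at 0.09. The readthrough gene TPTEP2-CSNK1E shares 18.5% of the CSNK1E exon bases, and reads in them cannot be told apart.

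GSK3B (ENSG00000082701) is a minus-strand gene of chromosome 3 from 119821321 to 120094994. It had 1201, 1234 and 1453 normalized counts in Ctrl and 2201, 1782 and 1753 in NE, means of 1296 ± 137 and 1912 ± 250.6 (SD, n = 3). The groups did not overlap, and the lowest NE library was above the highest Ctrl library, which was Ctrl replicate 3. GSK3B rose by 0.56 on the log2 scale (standard error 0.129, adjusted p = 0.00627), and by 0.64 without Ctrl replicate 3 (adjusted p = 0.000118 from limma).

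Both genes of the F-box proteins of the SCF ligases that recognize phosphorylated PER rose. Here and for all other genes RNA was measured and not protein. BTRC (ENSG00000166167), on the plus strand of chromosome 10 from 101354033 to 101557321, had 440.9, 527.8 and 591.9 normalized counts in Ctrl and 938.7, 794.2 and 818.7 in NE. All NE libraries were above all Ctrl libraries. The log2 fold change of BTRC was 0.71 (standard error 0.141, adjusted p = 0.00287), and 0.81 without Ctrl replicate 3 (adjusted p = 3.78e-05 from limma). FBXW11 (ENSG00000072803), its paralog on the minus strand of chromosome 5 from 171861549 to 172006873, had 1903, 1754 and 2049 normalized counts in Ctrl and 2854, 2365 and 2478 in NE, again without overlap. It rose by 0.43 (standard error 0.113, adjusted p = 0.0116), and by 0.49 without Ctrl replicate 3 (adjusted p = 0.000543 from limma). Without Ctrl replicate 2 it did not pass, with 0.37 and an adjusted p of 0.059.

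Among the auxiliary repressors, BHLHE40 (ENSG00000134107) lies on the plus strand of chromosome 3 from 4979437 to 4985323. It had 1228, 1349 and 835.9 normalized counts in Ctrl and 755.9, 857.1 and 857.1 in NE. As for CSNK1D, Ctrl replicate 3 lay among the NE libraries. The log2 fold change was -0.44 (standard error 0.175, adjusted p = 0.0619), -0.65 without Ctrl replicate 3 (adjusted p = 6.58e-05 from limma) and -0.48 by edgeR (adjusted p = 0.0439). BHLHE40-AS1, an antisense RNA gene that shares 12.8% of the BHLHE40 exon bases, had a mean of 2.62 normalized counts over the 6 libraries.

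BHLHE41 (ENSG00000123095), on the minus strand of chromosome 12 from 26120030 to 26125037, had 232.5, 272.7 and 270.5 normalized counts in Ctrl and 261.9, 205.3 and 213.8 in NE. The groups overlapped through NE replicate 1 and Ctrl replicate 1. Its log2 fold change was -0.19 with a 95% interval of -0.54 to 0.16 (adjusted p = 0.324), an interval that holds both a fall of more than 0.5 and a small rise. Without Ctrl replicate 3 it was -0.16 (adjusted p = 0.384 from limma).

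CIART (ENSG00000159208), on the plus strand of chromosome 1 from 150282543 to 150287093, was counted from few reads, with 42, 55 and 70 reads in Ctrl and 36, 38 and 29 in NE. These gave 43.98, 57.0 and 68.6 normalized counts in Ctrl and 35.6, 36.8 and 26.5 in NE. All NE libraries were below all Ctrl libraries, but the 95% Poisson interval of Ctrl replicate 1, from 31.7 to 59.5 normalized counts, included the values of NE replicates 1 and 2; such intervals cover counting error only. CIART fell by 0.75 on the log2 scale (standard error 0.279, adjusted p = 0.0483). This call rested on nearly every library: the adjusted p was 0.0933 without Ctrl replicate 3, and when each of the 6 libraries was omitted in turn, CIART passed only once, on omission of Ctrl replicate 1 (adjusted p = 0.045 from limma). The log2 difference itself stayed between -0.92 and -0.60 in these fits.

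SIRT1 (ENSG00000096717), on the plus strand of chromosome 10 from 67884656 to 67918390, had 576.0, 502.9 and 761.4 normalized counts in Ctrl and 1162, 1057 and 1021 in NE. The groups were far apart, with 613.4 ± 133 and 1079.8 ± 73.5 (SD, n = 3). SIRT1 had the largest rise of the 9 genes, 0.83 on the log2 scale (standard error 0.158, adjusted p = 0.00236). Without Ctrl replicate 3, which was the highest Ctrl library, it was 1.001 (adjusted p = 2.65e-06 from limma) and SIRT1 alone of the 9 genes met the fold criterion, as 20.8% of all genes did in that fit. In the same fit 31.8% of all genes rose and 32.6% fell, and of the 9 genes 4 rose and 3 fell.

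**Figure D2:**
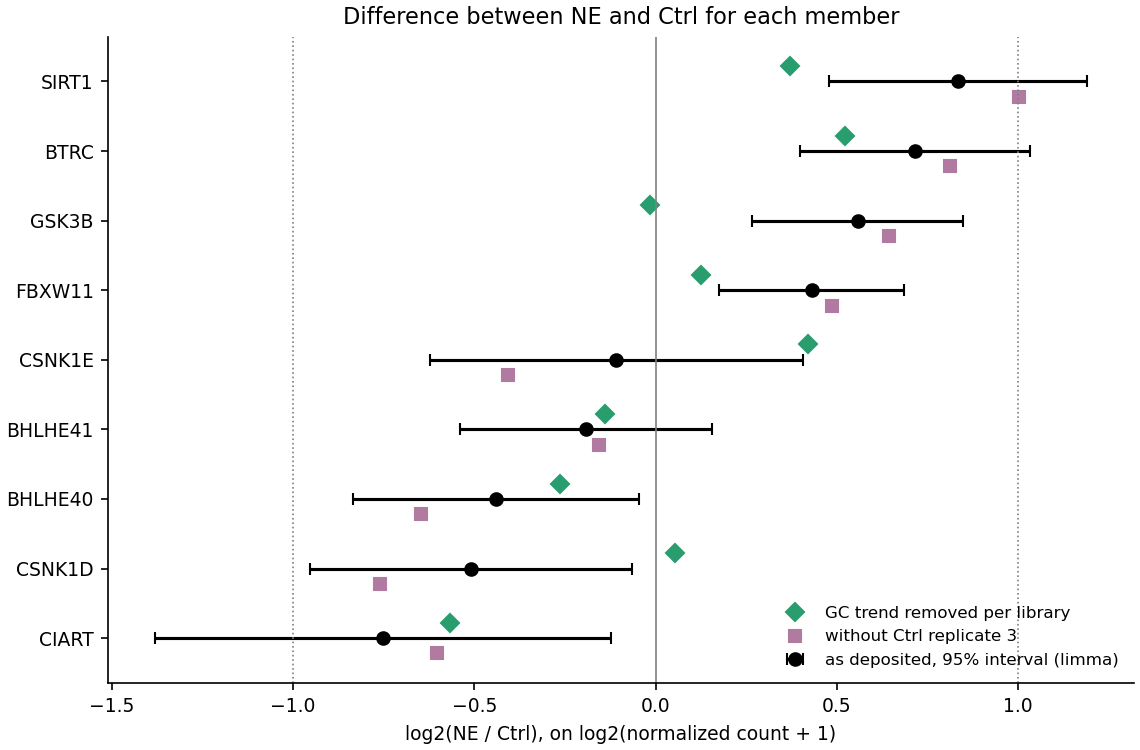
Difference between NE-treated and Ctrl cells for each gene on the log2 scale, as deposited with its 95% interval from limma (circles), without Ctrl replicate 3 (squares) and after the trend on GC content was removed from each library (diamonds); dotted lines mark a log2 difference of -1 and 1. The diamonds of GSK3B, FBXW11 and CSNK1D lie near 0, and those of BTRC and SIRT1 at 0.52 and 0.37.

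The GC content of the exons moved with these differences. The 4 genes that rose had a GC content of 39.9% to 45.6%, and the 5 others, all with a negative log2 difference, had 48.8% to 59.7%, against a median of 47.5% over all tested genes. After the trend on GC content had been removed from each library, BTRC was at 0.52 (adjusted p = 0.0116 from limma) and SIRT1 at 0.37 (adjusted p = 0.0391). GSK3B was then at -0.02 (adjusted p = 0.914) and FBXW11 at 0.12 (adjusted p = 0.351). CIART was at -0.57 (adjusted p = 0.172), BHLHE40 at -0.26 (adjusted p = 0.153) and BHLHE41 at -0.14 (adjusted p = 0.523), with the sign they had before. CSNK1D turned to 0.05 (adjusted p = 0.754), and CSNK1E turned to 0.42 and just passed (adjusted p = 0.0496). In this limma fit over 14955 genes with a GC content, 3 of the 9 genes rose and 0 fell, against 13.0% and 19.0% of all genes. At an unadjusted p under 0.05 the counts were also 3 and 0, against 18.4% and 24.9% of all genes. None met the fold criterion, which 6.09% of all genes did. Ctrl replicate 3, though untreated, also differed from the mean of the other Ctrl libraries before the correction. On the log2 scale SIRT1, BTRC, GSK3B and FBXW11 were at 0.50, 0.29, 0.26 and 0.17 there. CSNK1D, CSNK1E and BHLHE40 were at -0.75, -0.90 and -0.62, so these genes and the risers had the sign of their difference with NE. CIART and BHLHE41, at 0.45 and 0.10, had the other sign. The cause was not tested. When Ctrl replicate 3 was left out of the corrected fit, BHLHE40 fell, at -0.41 (adjusted p = 0.00365 from limma), CIART was at -0.35 (adjusted p = 0.362) and CSNK1E at 0.25 (adjusted p = 0.0499). BTRC and SIRT1 then rose by 0.62 and 0.48, while GSK3B, FBXW11, CSNK1D and BHLHE41 were at -0.02, 0.16, -0.06 and -0.06 and did not pass. Over the 6 corrected fits that each lacked 1 library BTRC passed in 5 and SIRT1 in 1, the one without Ctrl replicate 3. The correction also takes away any change by NE that runs along GC content, and how much of the rise of GSK3B and FBXW11 belongs to either was not tested.

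**Figure D3:**
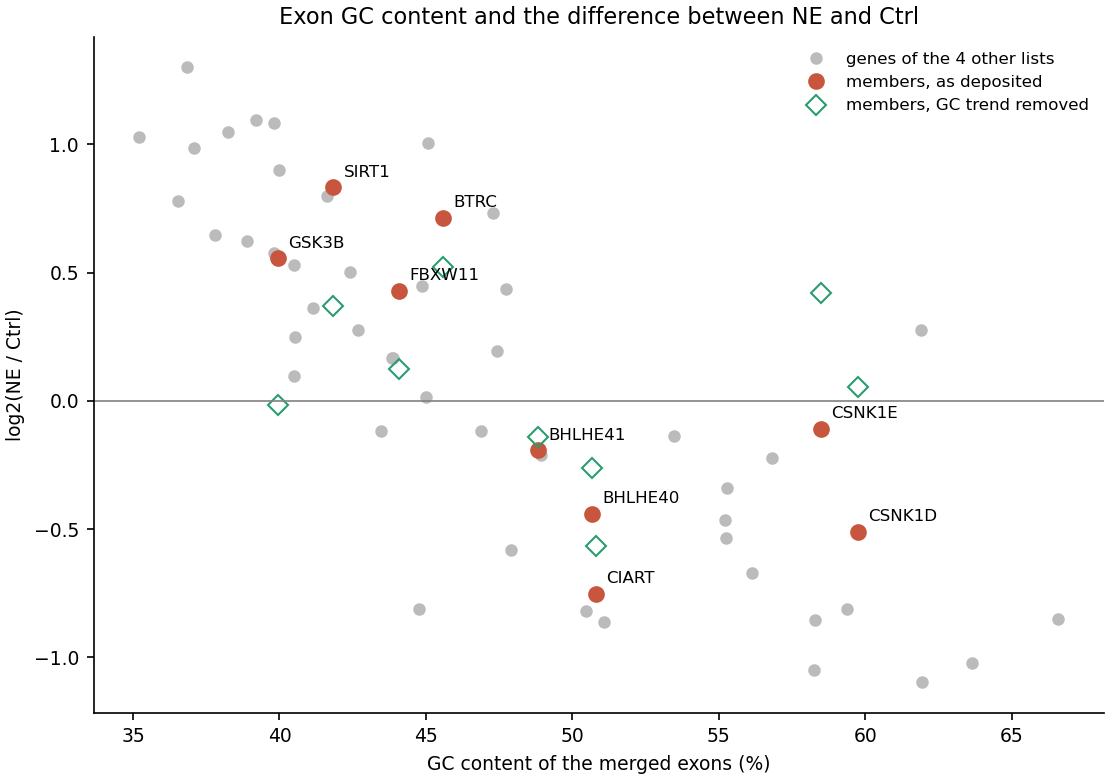
GC content of the merged exons (%) against the log2 difference between NE-treated and Ctrl cells for the 9 genes as deposited (filled) and after removal of the GC trend (open diamonds), and for the 46 genes of the 4 other lists (grey). Genes below 46% GC lie mostly above 0 and genes above 50% mostly below 0, and the open diamonds of GSK3B and CSNK1D lie near 0.

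The paralogs were compared within each library by the log2 ratio of their FPKM, which no scaling between libraries can move. The ratio of CSNK1D to CSNK1E was 1.64, 1.81 and 1.91 in Ctrl and 1.35, 1.46 and 1.26 in NE. Every NE library was below every Ctrl library, and here Ctrl replicate 3 did not stand on the side of the NE libraries. The difference in log2 ratio was -0.40, -0.35 without Ctrl replicate 3 and -0.37 after the GC correction (exact permutation test, two-sided, p = 0.1, adjusted p = 0.15 over the 3 pairs). The ratio of BTRC to FBXW11 was 0.195, 0.254 and 0.244 in Ctrl and 0.277, 0.283 and 0.279 in NE, a difference of 0.29 in log2 ratio without overlap (exact permutation test, two-sided, p = 0.1, adjusted p = 0.15). It was 0.17 without Ctrl replicate 1, which had the lowest ratio, and 0.33 without Ctrl replicate 3. The ratio of BHLHE40 to BHLHE41 was 5.79, 5.42 and 3.39 in the Ctrl libraries, against 3.16, 4.58 and 4.39 with NE, and overlapped, with a difference of -0.25 in log2 ratio (exact permutation test, two-sided, p = 0.5, adjusted p = 0.5). Single libraries moved this difference, to -0.49 without Ctrl replicate 3 (exact permutation p = 0.2), to -0.10 and -0.15 without Ctrl replicates 1 and 2 and to -0.08 without NE replicate 1, and it was -0.12 after the GC correction. The smallest p for each pair is 0.1, and none of the 3 could pass 0.05.

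To place the kinases, 17 other kinase and phosphatase genes that act on clock proteins or belong to the same families were examined. Of these 7 rose and 4 fell, with a median log2 difference of 0.28, where 24.6% of all tested genes rose and 25.5% fell. Without Ctrl replicate 3 the counts were 10 and 5, against 31.8% and 32.6% of all genes. Within casein kinase 1, CSNK1A1, CSNK1G1 and CSNK1G3 rose by 0.58, 0.45 and 0.99, and CSNK1G2 fell by 0.85. The GSK3 paralogs differed in sign, since GSK3A fell by 0.53 (adjusted p = 0.00992 from limma). The AMPK subunits PRKAA1 and PRKAA2, kinases that phosphorylate CRY1, rose by 0.78 and 1.03, and DYRK1A by 0.50. Of the catalytic subunits of protein phosphatase 1, which remove phosphates from PER, PPP1CB rose by 1.10 and PPP1CA fell by 1.10 on the log2 scale. PPP5C fell by 0.67. After the GC correction PPP1CB rose (0.49, adjusted p = 0.0331 from limma), and PPP1CA (-0.49, adjusted p = 0.0221) and PPP2CB (-0.47, adjusted p = 0.00593) fell, and no other gene of the list passed, where 13.0% and 19.0% of all genes did in each direction.

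Of 13 other genes of the ubiquitin pathway around the clock 7 rose and 3 fell, with a median of 0.44, and 9 and 3 did so without Ctrl replicate 3. The shares over all genes were those given for the kinases, here and for the lists that follow. CUL1, the scaffold on which BTRC and FBXW11 are mounted in the SCF ligase, rose by 0.73 (adjusted p = 0.000469 from limma), whereas its RING subunit RBX1 fell by 0.81 (adjusted p = 0.00205) and the adaptor SKP1 was at 0.10 (adjusted p = 0.532). FBXL21P, FBXW7, which encodes another F-box protein, and the ubiquitin ligase gene UBE3A rose by 1.08, 0.53 and 0.65. The deubiquitinases USP7 and USP9X rose by 0.44 and 0.90, and USP2 fell by 0.85. DDB1, an adaptor of CUL4 ligases, fell by 0.58. After the GC correction CUL1 and USP7 rose, at 0.67 and 0.41, and RBX1, DDB1 and SKP1 fell, at -1.06, -0.60 and -0.45, with adjusted p from 0.000397 to 0.00693 by limma.

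Of the 6 other sirtuin genes and the NAD synthesis genes NAMPT and NMNAT1, 1 rose and 3 fell, with a median of -0.57, and 1 and 4 did so without Ctrl replicate 3, where SIRT3 was at -0.39 (adjusted p = 0.0335 from limma). NAMPT, the rate-limiting enzyme of NAD salvage that feeds SIRT1, had 957.2, 924.0 and 1351 normalized counts in Ctrl and 2813, 2672 and 2379 in NE. All NE libraries were above all Ctrl libraries, and NAMPT rose by 1.30 on the log2 scale (standard error 0.155, adjusted p = 0.000288). SIRT2, SIRT6 and SIRT7 fell by 0.81, 1.02 and 1.05, while SIRT3, SIRT4 and SIRT5 were at -0.34, -0.86 and 0.02 with adjusted p from 0.09 to 0.918. The GC contents of SIRT2, SIRT6 and SIRT7 were 58.2% to 63.6%, and that of NAMPT was 36.9%. After the GC correction NAMPT was at 0.60 (adjusted p = 0.00106 from limma), and SIRT2, SIRT6 and SIRT7 were at -0.26, -0.40 and -0.52 (adjusted p = 0.0374, 0.0429 and 0.014), so that the same 4 genes passed.

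Of 8 core clock genes on whose products these proteins act, CLOCK, BMAL1 and CRY1 rose and CRY2 fell, with a median of 0.22, and the counts were also 3 and 1 without Ctrl replicate 3. The PER genes, the substrates of casein kinase 1, were at 0.28 for PER1, -0.14 for PER2 and 0.17 for PER3, with adjusted p from 0.21 to 0.624. After the GC correction CLOCK, BMAL1 and PER1 rose, at 0.40, 0.78 and 0.88, while CRY1 was at 0.32 (adjusted p = 0.127 from limma) and CRY2 at -0.05 (adjusted p = 0.832) and did not pass.

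The gene whose centred log2 values lay nearest to each of the 9 genes over the 6 libraries was sought among all tested genes, by the root mean square distance. For GSK3B this was AP3B1 at 0.013, for SIRT1 CKAP2 at 0.022, for FBXW11 SBF2-AS1 at 0.023 and for BTRC OXR1 at 0.038. For CSNK1D it was TRIM26 at 0.029, for CSNK1E TRIM46 at 0.048, for BHLHE40 GNL1 at 0.036 and for BHLHE41 ARSD at 0.044. CIART, with few reads, had no gene as near, and the pseudogene TMSB4XP8 was at 0.095. The nearest genes of the 4 risers had exon GC contents of 36.4% to 43.3%, and those of CSNK1D and CSNK1E 54.5% and 60.9%. Those of BHLHE40 and BHLHE41 had 50.1% and 51.3%. The nearest gene of CIART, which fell, had 44.4%, below the median of all tested genes.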

How the data were processed

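RNA of NCI-H1299 cells (3 Ctrl, 3 NE) was extracted with TRIzol and sequenced from libraries of the NEBNext Ultra RNA kit. Per the labels, the authors used HISAT2 2.0.5 on hg38 and featureCounts 1.5.0-p3. The authors named their values FPKM. The signal as deposited by the authors is of another kind, the reads of each gene over a single factor for the library (0.955 to 1.09). All values (100% in each library, within 0.1 read) were whole multiples of 1 read, and reads were recovered from them. The annotation, the strand setting and the treatment of multi-mapped reads are not given in the sources used here, so that reads of overlapping genes and close paralogs may be shared or lost.

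limma 3.58.1 (lmFit, eBayes with trend) was run on log2(value + 1), over 15013 genes with a mean of at least 10; folds of low genes are understated on this scale. On simulated data limma recovered 99.5% of 200 genes changed by 1.5 on the log2 scale, and called 0 unchanged genes. A call in the simulation needed the fold criterion as well as an adjusted p under 0.05. The count of 0 therefore does not tell how many unchanged genes pass on the adjusted p alone. A rise or fall is called here on the adjusted p alone. The 9 genes changed by less than 1.5, so the simulation does not tell how well such changes are found. Exon GC content and length came from GENCODE v44 for 25813 of the 26025 genes, and the GC correction removed a natural spline (5 degrees of freedom) from each library. edgeR 4.0.16, DESeq2 1.42.0 and voom on the recovered reads and the other alternatives are in the closing section. The 9 genes and the lists were chosen with earlier results of these data known. List genes were named where the adjusted p was under 0.05 or where they are paralogs or partners of the 9. Reads carry no molecular identifiers. Some genes of the lists are counted but not reported here by name.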

Additional observations from a re-analysis of the deposited data

How the results depend on the processing

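The tests concern 3 libraries per group, and for what follows the cause was not tested. BTRC passed in 27 of its 28 alternatives (0.41 to 0.84 on the log2 scale), SIRT1 in 23, GSK3B in 20 and FBXW11 in 19. BHLHE41 passed in 0 of 28 and stayed negative. CIART passed in 10 of 27. These totals count the unadjusted p of the limma test as an alternative, which was under 0.05 for all of these genes but BHLHE41. The corrections that also left out a library in turn were chosen after seeing the data. The libraries with the same replicate number gave correlations of -0.163, 0.08 and -0.151 in their deviations from the group means, and no library correlated best with its own number, so that the numbers gave no sign of pairing. With a replicate block 4 of the 9 genes rose and 0 fell by limma, against 21.0% and 22.4% of all genes. At an unadjusted p under 0.05, 2 fell, against 26.8% of all genes. CIART was at -0.75 with an adjusted p of 0.0963 from limma, and the block changed no other call of the 9.

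Of the 9 genes, 2 rose after correction for GC content and length, as 12.1% of all genes did. The number that fell, 1 as reported, was 0 with no filter, 0 with a mean of at least 50 (CIART was not tested there), 0 with recomputed FPKM, 0 after either correction, 3 by edgeR, 2 by DESeq2 and 3 with an unadjusted p. Of all genes 13.8% fell with no filter, 30.8% with the mean of at least 50, 19.7% with FPKM, 19.0% and 19.5% after the corrections, 26.5% by edgeR, 26.7% by DESeq2 and 28.7% with an unadjusted p. Over all fits that left out a library, with and without the GC correction, between 0 and 4 of the 9 genes rose. Between 0 and 3 fell, and between 0 and 1 met the fold criterion. In these fits 7.6% to 31.8% of all genes rose and 12.6% to 32.6% fell. The fall count of 3 came without Ctrl replicate 3, and the rise count of 0 came with the GC correction without NE replicate 1, where BTRC had an adjusted p of 0.052 from limma.

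CSNK1D reversed to 0.0527 with the GC correction, and over all fits without a library it ran from -0.76 to 0.113. CSNK1E reversed to 0.0272 with recomputed FPKM, which moved the median of all genes to 0.133, 0.421 with the GC correction and 0.328 with the GC and length correction, and ran from -0.407 to 0.543 without a library. GSK3B reversed to -0.0158 and -0.138 with these corrections, and ran from -0.0904 to 0.643 without a library. Quantile normalization and TMM scaling turned no sign.

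With the GC correction 1 of the other kinases and phosphatases rose and 2 fell, 2 of the other ubiquitin genes rose, and 0 of the core clock genes fell. In that fit 13.0% of all genes rose and 19.0% fell. Without a library, from 4 to 10 of the kinases and phosphatases rose (4 without NE replicate 1). From 4 to 9 of the ubiquitin genes rose (4 without Ctrl replicate 2), and from 0 to 1 of the core clock genes fell. Over these fits 18.1% to 31.8% of all genes rose and 19.7% to 32.6% fell. The sirtuin and NAD counts moved by less than 1.5 times.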
